A study of Mus musculus with 20 samples.

Results

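A set of 10 genes of the circadian clock, here called the clock output and repressor genes, were followed through *Winnie* and C57BL/6 mouse brains. They are *Dbp*, *Tef*, *Hlf*, *Nr1d1*, *Nr1d2*, *Per1*, *Per2*, *Per3*, *Ciart* and *Bhlhe41*, which are 10 of the 17211 genes listed in the deposited table of CPM, the reads of a gene scaled to a common total in every library. The genes were selected on their membership of the E-box and D-box driven arm of the clock, and they were chosen by name with the genotype differences of these same brains already known. The *Winnie* against C57BL/6 values below are therefore a description of the genes, without a test, and the other gene lists, chosen in the same way, are described by their calls. The tests that do not rest on the choice of genes are those of differences between brains of the same genotype.

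In the mammalian clock, CLOCK (or its relative NPAS2) and BMAL1, the product of *Arntl*, bind E-box sequences and switch on their own repressors. Period and cryptochrome proteins close that loop, the nuclear receptors REV-ERB alpha and REV-ERB beta repress *Arntl* through ROR elements, and the proteins DBP, TEF and HLF carry the rhythm onward through D-box sequences. Transcripts of these genes cycle over the day in the suprachiasmatic nucleus, the central pacemaker, and with smaller amplitude in many other brain regions.

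Brain RNA came from mice aged 14 weeks, with 10 C57BL/6 and 10 *Winnie* brains and 5 labelled female and 5 labelled male in each. *Winnie* mice carry a missense mutation of the mucin gene *Muc2* throughout the body and develop colitis spontaneously, and C57BL/6 mice, described as littermates, were the controls, with no treatment in either group. All mice were kept on a 12-h light and dark cycle, and the time of day at which each brain was taken is not given in the sources used here. Nothing in the labels ties brains to litters or collection days, and a p-value here measures the spread between these samples.

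The libraries held 16540303 to 23923769 reads over the listed genes, and 3 reads corresponded to at most 0.181 CPM, so that even the lowest value of the 10 genes, for *Ciart*, rested on 189 reads. Neuronal markers (*Rbfox3*, *Snap25*, *Syt1*, *Tubb3*) summed to 4076 to 4842 CPM in C57BL/6 and 4126 to 4674 CPM in *Winnie* brains. Of 4 cerebellar genes, *Pcp2* (medians 0.56 and 0.51 CPM in C57BL/6 and *Winnie*) and *Gabra6* (0.80 and 0.26 CPM) were near 0 in most brains. The others, *Cbln1* (medians 33.2 and 33.2 CPM) and *Car8* (11.6 and 9.91 CPM), were present in every brain. Which parts of the brain were taken is not given in the sources used here. The library numbers ran from 1 to 10 in C57BL/6 and from 11 to 20 in *Winnie* brains, so library order and genotype cannot be told apart, and within *Winnie* from 11 to 15 in brains labelled female and 16 to 20 in those labelled male. *Xist* and *Ddx3y*, which mark female and male cells, went against the label in 9 of 10 C57BL/6 brains and matched it in 10 of 10 *Winnie* brains. For that reason sex was compared within *Winnie* brains alone. In bulk tissue, fewer cells expressing a gene and less RNA per cell cannot be told apart.

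Promoter sequence is shown first, because the genes were grouped by the E-box and D-box elements that drive them. RefSeq promoter windows of build GRCm38.p6, from 250 bases before to 50 bases after each annotated start, were matched to 9 of the 10 genes, with 2 windows each for *Tef* and *Per1* and no entry for *Per2*. The motifs searched on both strands were the canonical E-box CACGTG, the D-box as TTATGTAA or TTACGTAA, and the core motif AGGTCA to which REV-ERB and ROR receptors bind, and none of these letters overlapped in the matches found. An E-box was present in 4 of the 9 genes and in 5 of their 11 windows, against 7.15% of all 32851 windows. Since the genes were grouped as E-box and D-box driven, nothing is read from that difference. The *Ciart* window held 3 of them, as did 0.0883% of all windows, and their first bases lay 116, 58 and 44 bases before the start. In the stretches below, all 5′ to 3′ along the strand of the gene, capitals mark the E-box.
Ciart, chr3:95882237-95882374, minus strand: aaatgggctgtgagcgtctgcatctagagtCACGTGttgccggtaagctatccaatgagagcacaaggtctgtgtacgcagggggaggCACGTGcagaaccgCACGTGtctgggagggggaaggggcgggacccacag
Bhlhe41, chr6:145865538-145865603, minus strand: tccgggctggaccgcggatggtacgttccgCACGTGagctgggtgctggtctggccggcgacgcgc
Per1, chr11:69098753-69098818, plus strand: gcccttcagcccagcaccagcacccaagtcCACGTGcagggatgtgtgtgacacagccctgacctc
Tef, first window, chr15:81802516-81802581, plus strand: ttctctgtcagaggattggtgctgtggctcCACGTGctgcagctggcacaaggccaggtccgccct
Tef, second window, chr15:81811246-81811311, plus strand: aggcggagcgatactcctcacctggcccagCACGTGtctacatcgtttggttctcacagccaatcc

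The single E-box lay 153 bases before the start in *Bhlhe41*, 166 bases before it in *Per1*, and 127 and 138 bases before the 2 starts of *Tef*. A D-box was found in *Per3* alone among the 9 genes, at 205 and 158 bases before the start, and 1.06% of all windows held at least 1 and 0.0244% at least 2. Capitals mark the D-box in the *Per3* stretch.
Per3, chr4:151044786-151044900, minus strand: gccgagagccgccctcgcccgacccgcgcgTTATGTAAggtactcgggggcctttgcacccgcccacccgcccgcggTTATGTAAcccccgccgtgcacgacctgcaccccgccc

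The receptor motif AGGTCA stood in the windows of *Nr1d2*, 77 bases before the start, and of *Per1*, 137 bases before it on the opposite strand, and in 16.3% of all windows. The windows of *Dbp*, *Hlf* and *Nr1d1* held none of these motifs. A match describes letters in a short window, and the absence of one says nothing of elements elsewhere in the gene.

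**Figure D1:**
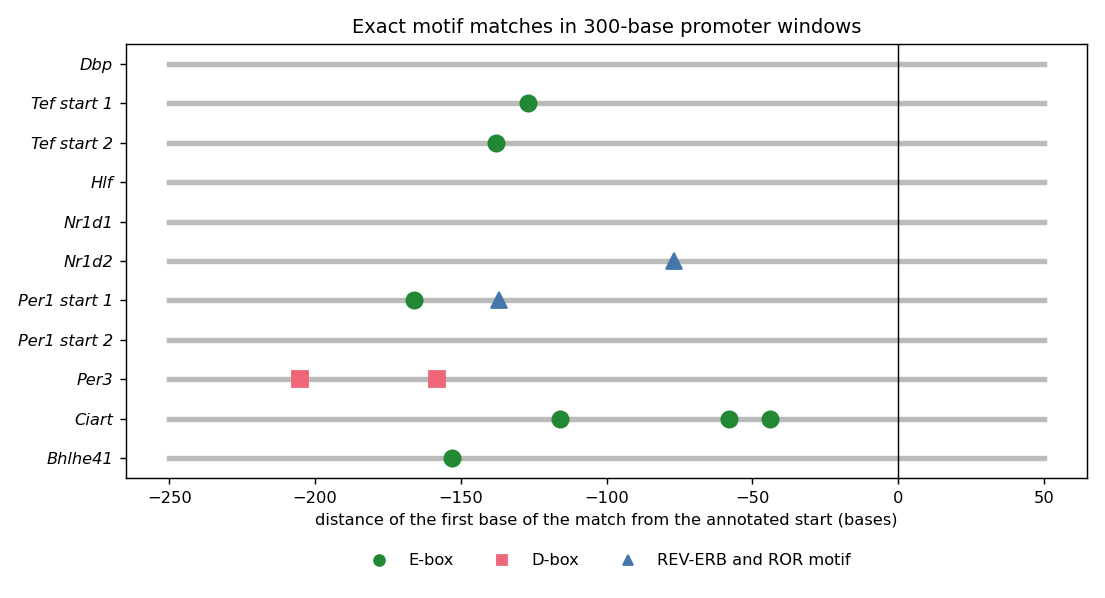
Positions of exact motif matches in the 11 promoter windows of 9 genes, with the distance of the first base of each match from the annotated start in bases on the horizontal axis and a row for each window. Green circles are E-boxes, red squares D-boxes and blue triangles the REV-ERB and ROR motif; *Ciart* carries 3 E-boxes and *Per3* 2 D-boxes.

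All 10 genes were higher on average in *Winnie* mouse brains, as were 51% of all genes tested. Log2 fold changes of log2(CPM + 0.5) from limma ran from 0.09 for *Hlf* to 0.59 for *Ciart*, with a median of 0.34, against 0.0022 over all genes. Of the 10 genes, 5 had a false discovery rate (FDR, the Benjamini-Hochberg adjusted p over all 17211 genes) under 0.05, namely *Tef*, *Nr1d2*, *Per3*, *Ciart* and *Bhlhe41*, beside 1.52% of all genes in that direction. None was among the 1.01% of genes lower in *Winnie* brains at that FDR. Since the genes were chosen with this contrast known, nothing is read from these counts. The values of the 2 genotypes overlapped for each of the 10 genes, and 0.0291% of all genes had values without overlap.

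**Figure D2:**
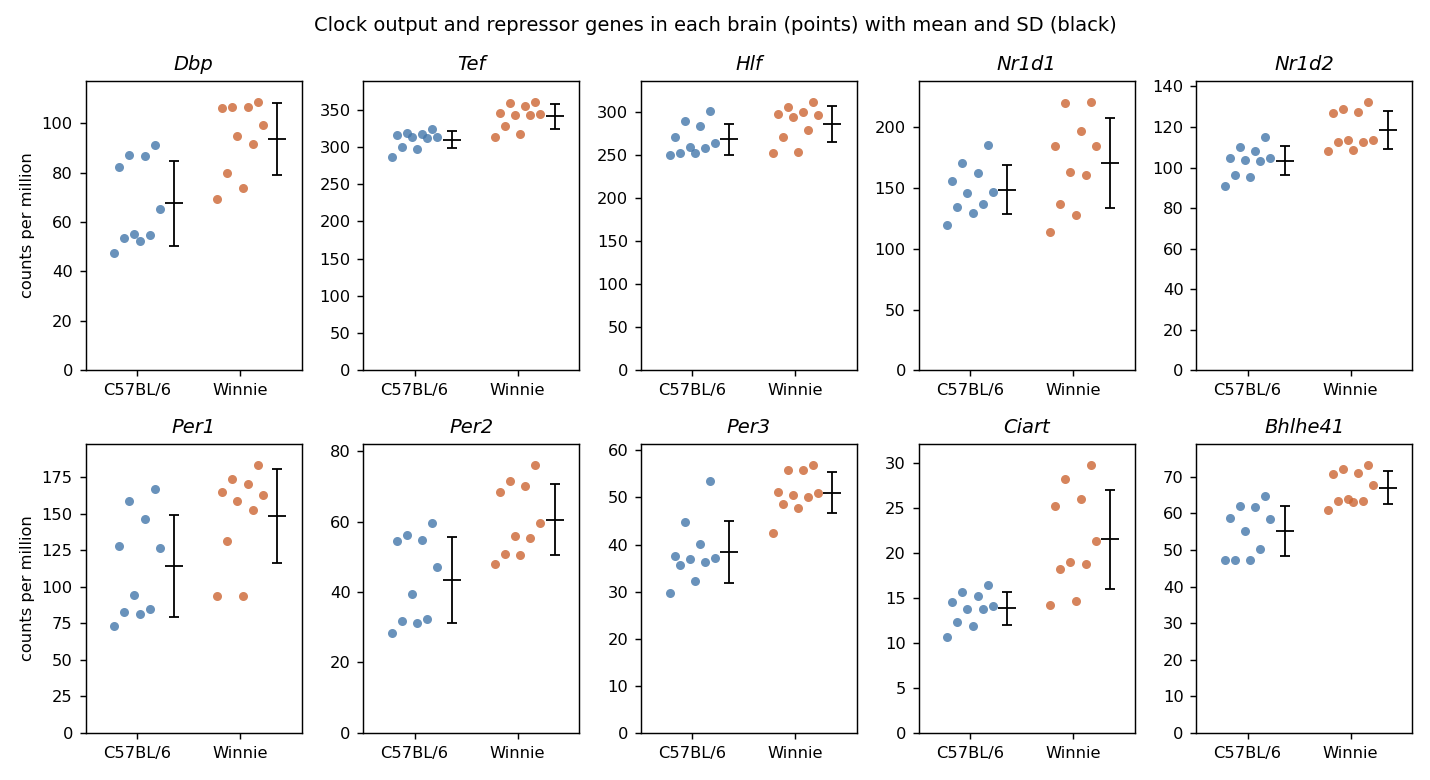
CPM of each gene in each of 20 brains (blue, C57BL/6; orange, *Winnie*; 10 each), with the mean and SD in black beside the points and every vertical axis starting at 0. For *Tef* and *Ciart*, 8 of 10 *Winnie* points lie above all C57BL/6 points, and *Dbp*, *Per1* and *Per2* are widely spread in C57BL/6 brains.

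The D-box activators are the PAR bZIP transcription factors DBP, TEF and HLF, direct outputs of the clock. *Dbp* (chromosome 7, 45705088 to 45710203, plus strand, GRCm38) ranged from 47.5 to 91.1 CPM with a median of 60.2 CPM in brains from C57BL/6 mice, and from 69.5 to 108 CPM with a median of 96.9 CPM in *Winnie* mouse brains. Its mean was 67.6 ± 17.3 CPM (SD, n = 10) against 93.6 ± 14.5 CPM (SD, n = 10). In *Winnie*, 7 of 10 brains lay above the highest C57BL/6 brain, and the other 3 lay between the 6 lowest and the 4 highest C57BL/6 brains. The log2 fold change was 0.49 (SE 0.136, 95% interval 0.21 to 0.78).

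*Tef* (chromosome 15, 81802421 to 81826863, plus strand) was the least variable of the 10 genes. It ranged from 286 to 324 CPM, median 313 CPM, in C57BL/6 and from 314 to 360 CPM, median 344 CPM, in *Winnie* brains. The highest *Tef* value in C57BL/6 was 1.13 times the lowest, and 8 of 10 *Winnie* brains lay above all C57BL/6 brains. A log2 fold change of 0.14 (SE 0.0329, 95% interval 0.07 to 0.21), a small difference in size, thus stood beside a small spread.

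*Hlf* (chromosome 11, 90336536 to 90390895, minus strand) had the smallest difference of the 10. Its values ran from 250.3 to 302 CPM, median 261 CPM, in C57BL/6 and from 253 to 311 CPM, median 295 CPM, in *Winnie* brains. Only 2 of 10 *Winnie* brains exceeded the highest C57BL/6 brain, and the log2 fold change was 0.09 (SE 0.0431, 95% interval 0.01 to 0.18).

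The nuclear receptor repressors differed in how far their values spread. *Nr1d1* (chromosome 11, 98767932 to 98775333, minus strand) encodes REV-ERB alpha, a heme-binding repressor of *Arntl*. It ranged from 119 to 185 CPM, median 147 CPM, in C57BL/6 and from 114 to 221 CPM, median 174 CPM, in *Winnie* brains. *Winnie* brains held both the lowest and the 3 highest of the 20 values, and the 95% interval of the log2 fold change of 0.18 (SE 0.118) reached from -0.07 to 0.43. *Nr1d2* (chromosome 14, 18204054 to 18239127, minus strand), which encodes REV-ERB beta, ranged from 91.1 to 115 CPM, median 104 CPM, in C57BL/6 and from 108 to 132 CPM, median 114 CPM, in *Winnie* brains. Every *Winnie* brain (10 of 10) exceeded the C57BL/6 median of *Nr1d2*, 4 exceeded its highest value, and the log2 fold change was 0.20 (SE 0.0456, 95% interval 0.10 to 0.29).

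The period genes encode the PAS-domain repressors that bind CLOCK and BMAL1 together with cryptochromes. *Per1* (chromosome 11, 69095217 to 69109960, plus strand), which also responds acutely to glucocorticoids and to neuronal activity, ranged from 73.4 to 167 CPM, median 111 CPM, in C57BL/6 and from 93.8 to 183 CPM, median 161 CPM, in *Winnie* brains. C57BL/6 brains spanned a 2.28-fold range and *Winnie* brains a 1.95-fold range of *Per1*, so that a log2 fold change of 0.40 carried an SE of 0.178 (95% interval 0.03 to 0.78). The values of 3 of 10 *Winnie* brains lay above all C57BL/6 brains.

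*Per2* (chromosome 1, 91415982 to 91459324, minus strand) ranged from 28.3 to 59.5 CPM, median 43.2 CPM, in C57BL/6 and from 47.9 to 76.0 CPM, median 57.8 CPM, in *Winnie* brains. Its lowest *Winnie* value lay above 6 of 10 C57BL/6 brains, and 5 of 10 *Winnie* brains lay above the highest C57BL/6 value. The log2 fold change was 0.51 (SE 0.149, 95% interval 0.19 to 0.82).

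*Per3* (chromosome 4, 151003652 to 151044665, minus strand), the period gene least needed for the core oscillator, ranged from 29.8 to 53.4 CPM, median 37.1 CPM, in C57BL/6 and from 42.5 to 56.9 CPM, median 50.8 CPM, in *Winnie* brains. As many as 8 of 10 C57BL/6 brains lay below the lowest *Winnie* value, and the highest C57BL/6 value, in replicate 2, lay above the *Winnie* median. The log2 fold change was 0.42 (SE 0.0757, 95% interval 0.26 to 0.57).

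The E-box repressors act on CLOCK and BMAL1 at the promoters these bind. *Ciart* (chromosome 3, 95878503 to 95882251, minus strand), also named Chrono, had the largest difference and the fewest reads of the 10. Its values ran from 10.6 to 16.4 CPM, median 13.98 CPM, in C57BL/6 and from 14.2 to 29.8 CPM, median 20.2 CPM, in *Winnie* brains. A total of 8 of 10 *Winnie* brains exceeded all C57BL/6 brains, and the log2 fold change was 0.59 (SE 0.124, 95% interval 0.33 to 0.85). The spread of *Ciart* was itself unequal, with an SD of 1.79 CPM in C57BL/6 and 5.50 CPM in *Winnie* brains.

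*Bhlhe41* (chromosome 6, 145858243 to 145865558, minus strand) encodes DEC2, a basic helix-loop-helix repressor that competes for E-boxes. It ranged from 47.1 to 64.8 CPM, median 56.8 CPM, in C57BL/6 and from 60.8 to 73.2 CPM, median 65.8 CPM, in *Winnie* brains. Among *Winnie* brains 5 of 10 lay above the highest C57BL/6 brain, 7 of 10 C57BL/6 brains lay below the lowest *Winnie* brain, and the log2 fold change was 0.28 (SE 0.0578, 95% interval 0.16 to 0.40).

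At an FDR under 0.001 and a difference of 1.5-fold or more in either direction, 0 of the 10 genes passed in limma and 0 in edgeR on the recovered reads, as did 0% of all genes in limma. At an unadjusted p under 0.05 there were 9 of the 10 in limma, beside 17.6% of all genes, and 7 in edgeR, beside 18.6%. DESeq2 on the same reads placed 1 gene, *Ciart*, past that stricter threshold beside 0.0865% of the 13874 genes to which it gave an adjusted p. At an FDR under 0.05 DESeq2 placed *Dbp* and *Per2* beside the 5 genes named above, 7 of 10 against 3.63% of its genes in that direction.

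Set against the length of their exons, the 10 genes formed 3 levels in brains from C57BL/6 mice. *Nr1d1* stood highest at 48.3 ± 6.54 CPM per kb of merged exons (SD, n = 10), followed by *Hlf* at 40.1 ± 2.67 and *Tef* at 39.4 ± 1.47 CPM per kb, and the last pair differed by less than their SDs. A middle group comprised *Dbp* at 22.6 ± 5.77, *Per1* at 20.3 ± 6.23 and *Nr1d2* at 19.1 ± 1.33 CPM per kb, whose neighbours again lay within their SDs. The lowest levels were those of *Bhlhe41* at 8.23 ± 1.01, *Per2* at 7.43 ± 2.08, *Ciart* at 6.12 ± 0.793 and *Per3* at 3.996 ± 0.692 CPM per kb, and only *Ciart* and *Per3* among these neighbours differed by more than both SDs. In *Winnie* mouse brains the upper 6 genes stayed in these levels, with *Tef* at 43.3 ± 2.08 and *Hlf* at 42.8 ± 3.13 CPM per kb again within their SDs. *Per2* at 10.3 ± 1.73, *Bhlhe41* at 9.96 ± 0.674 and *Ciart* at 9.53 ± 2.43 CPM per kb could not be ordered beyond their spread there.

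Variation between brains of the same genotype separated the genes as clearly as their levels did. Among 8649 genes with means in about the range that the 10 genes span in C57BL/6 brains, the SD of log2(CPM + 0.5) of *Per1* was larger than that of 99.4%, with 99.3% for *Per2*, 99.0% for *Dbp* and 96.0% for *Per3*. *Tef* lay at the other end, with an SD larger than that of 4.81% of such genes. *Ciart* moved from 90.9% in C57BL/6 to 99.3% of 8637 genes in *Winnie* brains and *Nr1d1* from 91.9% to 99.0%, while *Per3* moved from 96.0% to 70.7% and *Bhlhe41* from 89.4% to 43.9%. Within a genotype each gene was set against the same genes whatever its own level, so the level of a gene also enters its percentage. These percentages describe the 2 sets of 10 brains, and the differences in spread between genotypes were not tested.

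**Figure D3:**
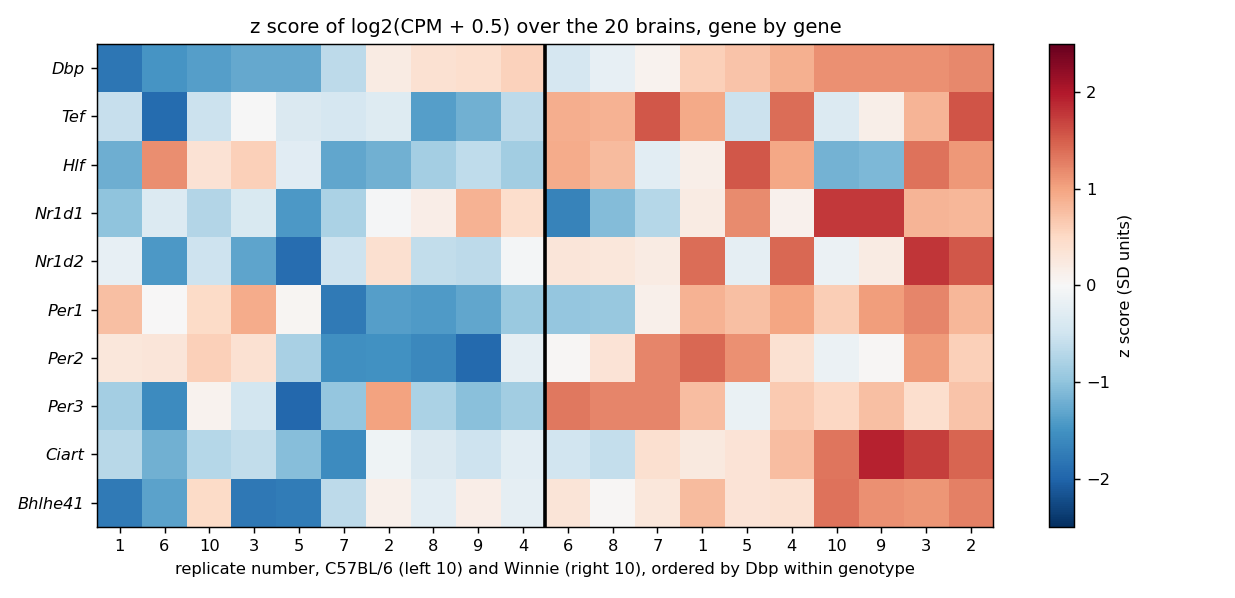
Each gene's z score of log2(CPM + 0.5), in SD units over all 20 brains (red, above the mean of the gene; blue, below), for C57BL/6 brains left of the black line and *Winnie* brains right of it, ordered within genotype by *Dbp*. *Per1* and *Per2* are lower where *Dbp* is higher in C57BL/6 brains, and *Nr1d1* and *Ciart* are higher where *Dbp* is higher in *Winnie* brains.

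Whether the genes varied together between brains of the same genotype was examined against *Dbp*, the output gene, with genotype as a covariate in limma. *Nr1d1* had the largest positive slope, 0.68 log2 units for each log2 unit of *Dbp* (SE 0.121, 95% interval 0.43 to 0.93, FDR 0.0526 in limma). *Ciart* followed at 0.63 (SE 0.155, FDR 0.12) and *Bhlhe41* at 0.33 (SE 0.0791, FDR 0.112), while *Per2* had a slope of -0.57 (SE 0.224, FDR 0.328). None of the other 9 genes (0 of 9) passed an FDR under 0.05 in limma or in edgeR, beside 0.0116% of all genes in limma. At an unadjusted p under 0.05 both tools placed 4 of 9, namely *Nr1d1*, *Per2*, *Ciart* and *Bhlhe41*, against 11.4% of all genes in limma. *Nr1d1* passed the FDR threshold when any 1 of 9 brains was left out (C57BL/6 replicates 1 to 6 and *Winnie* replicates 5, 9 and 10), and *Bhlhe41* did so without C57BL/6 replicate 10, at an FDR of 0.00555. The slope of *Arntl*, the target of REV-ERB alpha, was -0.25 (SE 0.0802, FDR 0.223).

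*Dbp* values were split at the largest gap in each genotype, 39.1% of the range in C57BL/6 and 30.5% in *Winnie* brains. Whether the parts are separate clusters was not tested. Such gaps limit what a slope or a correlation can show. In C57BL/6, 6 brains lay at 47.5 to 65.3 CPM and 4 at 82.4 to 91.1 CPM, and in *Winnie*, 3 lay at 69.5 to 79.9 CPM and 7 at 91.8 to 108 CPM. Correlations, planned over the 10 brains of each genotype, were computed only within the parts of 6 and 7 brains. Of 20 relations in all, 0 had an adjusted p under 0.05 in exact permutation tests, with 1 under an unadjusted 0.05. That relation was *Ciart* with *Dbp* in the 7 *Winnie* brains (Pearson r = 0.94, exact two-sided permutation p = 0.00496, adjusted p = 0.0992; Spearman rho = 0.86, p = 0.0238). Without the 2 brains farthest from the median of *Dbp*, r was 0.80. In the 6 C57BL/6 brains the same relation ran the other way (r = -0.73, exact two-sided permutation p = 0.108, adjusted p = 0.333). There r was 0.44 without the 2 brains farthest from the median.

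Brain by brain, *Per1* and *Dbp* ran in different directions in the 2 genotypes, a pattern noticed in the values and not tested. Ordered by rising *Dbp*, the 10 C57BL/6 brains held 158, 127, 146, 167, 128, 73.4, 82.7, 81.4, 84.7 and 94.5 CPM of *Per1*. The 10 *Winnie* brains in the same order held 93.8, 93.9, 131, 165, 159, 170, 152, 174, 183 and 163 CPM. The high *Per1* values thus stood beside the 5 lowest *Dbp* values in C57BL/6 and beside the 7 highest in *Winnie* brains.

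*Nr1d1* tended to be higher where *Dbp* was higher in both orders. In C57BL/6 it read 130, 147, 137, 146, 119, 135, 156, 162, 185 and 171 CPM, and in *Winnie* 114, 128, 137, 163, 197, 160, 221, 220, 185 and 184 CPM. Within the 6 C57BL/6 brains lowest in *Dbp*, Pearson r of *Nr1d1* with *Dbp* was 0.01 (exact permutation test, adjusted p = 0.999). Within the 7 *Winnie* brains highest in *Dbp*, r was 0.53 (exact permutation test, adjusted p = 0.538). For *Ciart* the *Winnie* brains read 14.7, 14.2, 19.05, 18.2, 18.7, 21.3, 25.2, 29.8, 28.3 and 26.0 CPM in the order of *Dbp*. The 3 *Winnie* brains lowest in *Dbp* were replicates 6, 7 and 8, which were also the 3 lowest *Winnie* brains for *Nr1d1*, *Per1* and *Bhlhe41*. For *Per3* the same brains were the 3 highest *Winnie* brains. They carried the library numbers 16, 17 and 18, and replicates 10 and 9, the other *Winnie* brains labelled male, carried 19 and 20.

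**Figure D4:**
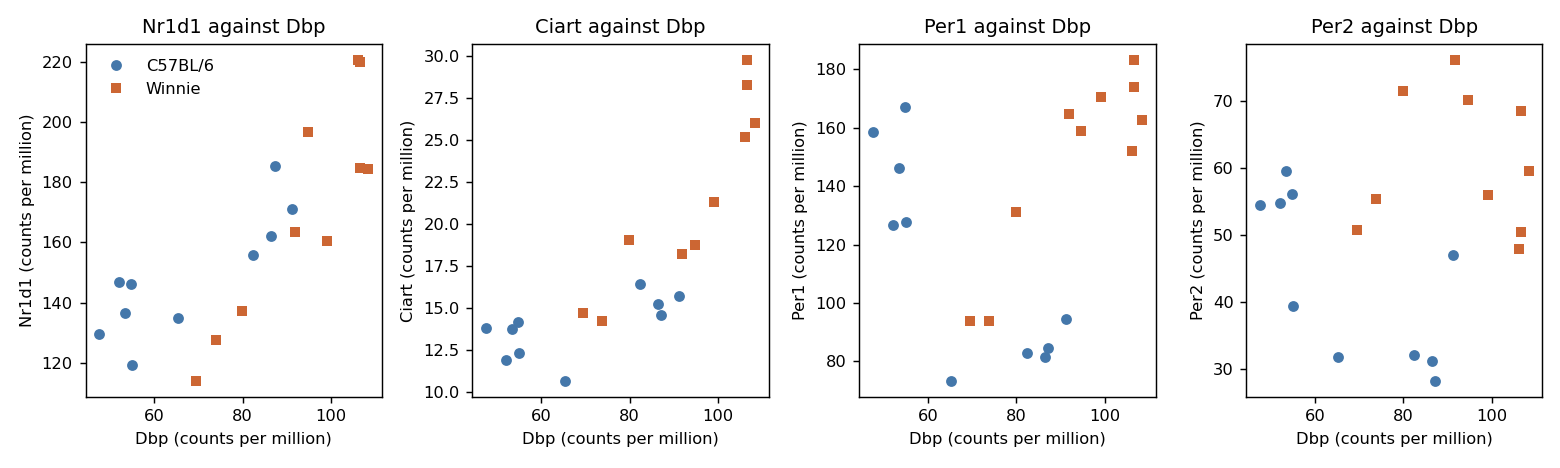
*Nr1d1*, *Ciart*, *Per1* and *Per2* against *Dbp*, all in CPM, with a point for each brain (blue circles, C57BL/6; orange squares, *Winnie*; 10 each). *Nr1d1* tends to be higher with *Dbp* over the 10 brains of each genotype. In the 4 C57BL/6 brains highest in *Dbp*, *Per1* lies at 81.4 to 94.5 CPM. In the 7 *Winnie* brains highest in *Dbp*, *Per1* lies at 152 to 183 CPM.

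Sex was compared within *Winnie* mouse brains, 5 labelled female against 5 labelled male, where sex and library order cannot be told apart. By limma, 0 of the 10 genes passed an FDR under 0.05, as did 0 by edgeR, beside 0.116% of all genes. At an unadjusted p under 0.05 there were 5 of 10 in limma (*Hlf*, *Nr1d2*, *Per1*, *Per2* and *Per3*) and 4 in edgeR, against 9.81% of all genes in limma. Of those 5 genes, all but *Per3* were higher on average in brains labelled female.

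*Nr1d2* read 127, 129, 132, 128 and 108 CPM in the brains labelled female and 114, 113, 114, 113 and 109 CPM in those labelled male. There 4 females lay above every male and the remaining one below them all, with a log2 difference of 0.15 (95% interval 0.03 to 0.27, exact two-sided permutation p = 0.0476, limma FDR 0.356). The smallest p this design of 5 against 5 allows is 0.00794.

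*Per1* read 165, 163, 183, 170 and 159 CPM in females and 93.8, 131, 93.9, 174 and 152 CPM in males. Again 4 males lay below the lowest female, and the log2 difference was 0.42 (95% interval 0.02 to 0.83, exact permutation p = 0.0556, limma FDR 0.489). *Per3* ran the other way, with 51.1, 50.5, 47.7, 50.01 and 42.5 CPM in females and 56.9, 55.8, 55.8, 51.0 and 48.6 CPM in males. For *Per3* the log2 difference, female minus male, was -0.15 (95% interval -0.28 to -0.01, exact permutation p = 0.0635, limma FDR 0.448), with 3 males above every female. Those 3 males were replicates 6, 7 and 8, also the 3 lowest *Winnie* brains for *Per1*. The other males, replicates 9 and 10, lay within the range of the females for *Per3*. *Nr1d1* showed no such order, since males held both its 3 lowest and its 2 highest *Winnie* values.

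The rest of the clock gave a frame for these genes in the genotype comparison. Of 19 other clock genes, 0 were higher and 1 was lower in *Winnie* brains at an FDR under 0.05 by limma and by edgeR, beside 1.52% and 1.01% of all genes in limma, with a median log2 fold change of 0.04. An unadjusted p under 0.05 was reached by 4 of the 19 in limma and 5 in edgeR, shares near the 17.6% and 18.6% of all genes. *Arntl*, the activator that the REV-ERB receptors repress, fell from 31.2 ± 3.40 CPM (SD, n = 10) in C57BL/6 to 26.4 ± 1.63 CPM (SD, n = 10) in *Winnie* brains, with a log2 fold change of -0.23 (SE 0.0535, limma FDR 0.0184). Its FDR was 0.0512 with a replicate block. Its partner genes *Clock* and *Npas2* had log2 fold changes of -0.0039 and -0.08 (limma FDR 0.975 and 0.609). The cryptochrome repressor *Cry1* had a log2 fold change of 0.28 (SE 0.0786, limma FDR 0.0504) and *Cry2* one of 0.11 (SE 0.0366, limma FDR 0.0849). *Nfil3*, which encodes a repressor at D-boxes, had one of -0.25 (SE 0.138, limma FDR 0.366). DESeq2 also placed *Cry1* and *Cry2* past the threshold, so that 3 of the 19 passed there.

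**Figure D5:**
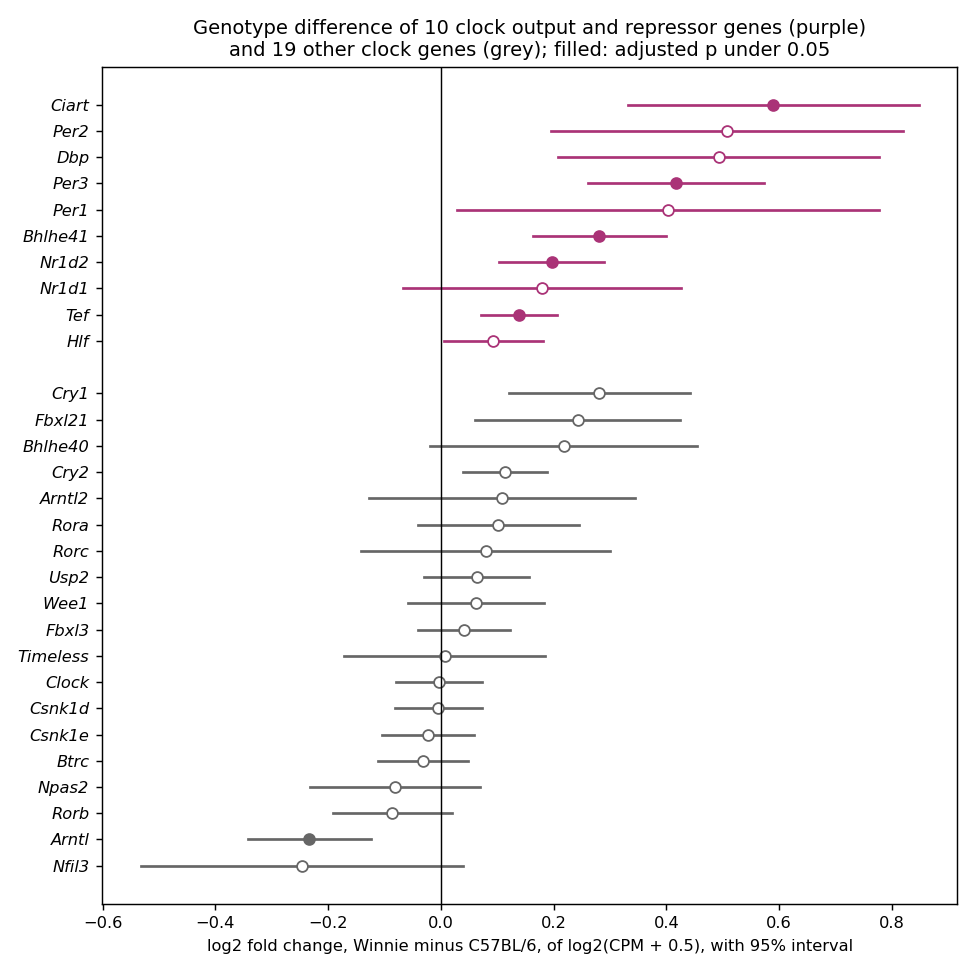
Log2 fold changes (*Winnie* minus C57BL/6, of log2(CPM + 0.5)) with 95% intervals from limma for the 10 clock output and repressor genes in purple and 19 other clock genes in grey; filled points have an FDR under 0.05. All 10 purple points lie to the right of 0, where the grey ones are centred near 0.04 and *Arntl* is the one filled grey point, at -0.23.

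Genes induced by glucocorticoids were read because *Per1* responds to that hormone. Of 12 such genes 5 were higher at an FDR under 0.05 by limma, beside 1.52% of all genes, 0 were lower and 7 did not pass, with a median log2 fold change of 0.42, and the summed level of the list was 333.5 to 586 CPM in C57BL/6 and 502 to 738 CPM in *Winnie* brains. The 5 were *Plin4* (log2 fold change 1.91), *Sgk1* (0.98), *Arrdc2* (0.70), *Tsc22d3* (0.48) and *Errfi1* (0.28). *Winnie* replicates 6, 7 and 8, the 3 *Winnie* brains lowest in *Dbp*, stood apart for *Plin4*, at 44.4, 34.5 and 31.0 CPM against 4.90 to 16.3 CPM in the other *Winnie* brains, and for *Fkbp5*, at 63.3, 59.8 and 50.6 CPM against 31.1 to 42.8 CPM. For *Sgk1* these 3 brains held 131, 144 and 96.0 CPM, within the 66.4 to 184 CPM of the other *Winnie* brains. Without those 3 brains, a comparison added after the values were seen, 0 of the 12 passed in limma. There 7 had an unadjusted p under 0.05, and the median log2 fold change was 0.31. The 5 genes had log2 fold changes of 1.333 (*Plin4*), 1.003 (*Sgk1*), 0.652 (*Arrdc2*), 0.42 (*Tsc22d3*) and 0.307 (*Errfi1*) in that fit, with limma FDRs of 0.0542 to 0.0974. Over all genes 137 passed in that fit, against 434 with all brains. Why fewer passed was not tested. Of the clock output and repressor genes 5 of 10 had an FDR under 0.05 there, with *Dbp* in place of *Tef*, beside 0.453% of all genes, and the log2 fold changes ran from 0.09 for *Hlf* to 0.76 for *Ciart*. The value of *Nr1d1* moved most in proportion, from 0.18 to 0.35. The brains left out were the 3 lowest *Winnie* brains for *Dbp*, *Nr1d1*, *Per1* and *Bhlhe41*. Leaving them out raises the log2 fold changes of these genes by construction, so nothing is read from that rise or from *Dbp* passing. Immediate-early genes of neuronal activity, whose stimuli also induce *Per1*, gave 0 of 11 by limma and by edgeR, with 1 at an unadjusted p under 0.05 in each, and 1 by DESeq2, *Npas4*, which was lower in *Winnie* brains. Their summed level ran from 461 to 1927 CPM in C57BL/6 and from 417 to 1245 CPM in *Winnie* brains. The part of either list in the values of the clock genes was not tested.

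Markers of the pacemaker and neighbouring hypothalamus (*Vip*, *Avp*, *Six6*, *Oxt*, *Hcrt*) summed to 23.3 to 54.1 CPM in C57BL/6 and 21.98 to 56.6 CPM in *Winnie* brains, and 0 of 5 passed by limma, edgeR or DESeq2, with 0 at an unadjusted p under 0.05 in limma. Single genes varied widely, as *Avp* from 0.404 to 20.7 CPM in C57BL/6 and *Hcrt* from 0.163 to 9.77 CPM in *Winnie* brains. Without *Winnie* replicates 6, 7 and 8, the fit added after the values were seen, 0 of 5 passed in limma. There 3 of 5 had an unadjusted p under 0.05, beside 2770 of all 17211 genes. The median log2 fold change of the 5 was 0.43 there, against 0.17 with all brains. *Nms* was not analysed here. Endothelial markers gave 1 of 4, *Cldn5*, lower in *Winnie* brains at a log2 fold change of -0.47, beside 1.01% of all genes in limma. *Pecam1*, *Flt1* and *Itm2a* had log2 fold changes of 0.09, 0.09 and 0.0038, none with an FDR under 0.05 in limma. The summed list ran from 117 to 163 CPM in C57BL/6 and from 113 to 148 CPM in *Winnie* brains. The other lists of neurons, astrocytes, oligodendrocytes, microglia, choroid plexus, cerebellum and blood had 0 genes past an FDR under 0.05 in limma, edgeR or DESeq2, and 3 at an unadjusted p under 0.05 in limma.

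The spans of 5 of the 10 genes overlap that of another listed gene, and overlap of their exons was not examined. Whether any counted read fell in such an overlap is not known, and the strand setting of the counting is not given in the sources used here. *Sphk2* overlaps *Dbp*, *Gm17597* *Tef*, *Thra* *Nr1d1* and *C920021L13Rik* *Ciart*, each on the opposite strand, and *Camta1* overlaps *Per3* on the same strand. The log2 fold changes of these partners ran from -0.10 for *Sphk2* to 0.18 for *C920021L13Rik*, and none had an FDR under 0.05 in limma. *C920021L13Rik* averaged 1.26 CPM in C57BL/6 and 1.51 CPM in *Winnie* brains, against 13.8 and 21.6 CPM for *Ciart*.

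The genes most like the mean of the 10 were sought by correlation over the 20 brains, after centring on each genotype, among 15158 genes with a mean of at least 1 CPM. *March9* (r = 0.78), *4931428F04Rik* (0.76), *Abhd12b* (0.73), *Epn3* (0.73) and *Adgra2* (0.72) followed the mean z score of the 10 most closely, and *Gm10501* (-0.80), *Gm527* (-0.74) and *Ssbp3* (-0.71) ran against it most. These 20 values share libraries and depth, and the correlations are descriptions. Taken singly, in a search chosen after the values were seen, *Per1* was most like *Bhlhe40* (r = 0.94), one of the other clock genes. Among the 10 genes *Dbp* was most like *Nr1d1* (0.78), *Ciart* most like *Nr1d1* (0.78) and *Bhlhe41* most like *Dbp* (0.70). *Per1* and *Per2* were nearest to each other (0.69), and *Hlf* was nearest to *Per2* (0.50) and *Tef* to *Nr1d2* (0.44). *Nr1d2* was nearest to *Bhlhe41* (0.46) and *Per3* to *Tef* (0.44). Over all genes compared, each of the 10 was nearer to a gene outside the 10. Examples are *Gpcpd1* for *Per3* (0.91), *Trak1* for *Per2* (0.90), *Agk* for *Tef* (0.84) and *Wipf2* for *Hlf* (0.78). The highest of 15167 correlations is favoured over the highest of 9 by number alone, so nothing is read from that.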

How the data were processed

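PolyA libraries of brain RNA were processed by the authors with RNAsik 1.5.4 on GRCm38 and counted with featureCounts. The deposited unit is CPM, the reads of a gene scaled to a common total per library, made by the authors with Degust, and 100% of values were whole reads within 0.1 read. The 10 genes and all gene lists were chosen with earlier results of these data known. Samples were grouped by labelled genotype and all 20 were used, more than the number of brains in the study's text, which does not say which of the labelled samples those were. Log2(CPM + 0.5) was compared with limma 3.58.1 (trend, robust) in R 4.3.3 over 17211 genes, and a minimum mean CPM of 0.1 removed 0 genes. Intervals cover the spread between brains. Named were all 10 genes, 6 other clock genes and any called, *Xist* and *Ddx3y*, and the 5 genes most like and 3 most unlike the 10. The stricter threshold follows the study's methods. Alternatives were pseudocounts of 0.1 and 1, a mean CPM of at least 1, median-ratio scaling, DESeq2 1.42.0 and edgeR 4.0.16, both run on recovered reads, labelled sex as a covariate, a replicate block and each brain left out; leaving out 3 *Winnie* brains together was added after the values were seen. The fits were tested on simulated data. Exact permutation tests were two-sided and enumerated all 252 splits of 5 against 5 or all orders of 6 or 7 brains (Python 3.11.15, scipy 1.17.1). Coordinates came from GENCODE M21, and promoter sequences from RefSeq.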

Additional observations from a re-analysis of the deposited data

Results flagged for a closer look

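Samples far from the rest of their group were sought for each of the 10 genes in 40 combinations of gene and group (the 2 genotypes and the 2 labelled sexes within *Winnie*), and Dixon's rule marked 2, where chance marks about 1 group in 20. Both concern *Nr1d2* within *Winnie* brains. The brain labelled female with replicate number 5 held 108 CPM (107.92), far below the next value of 127 CPM, a gap of 0.794 of the range of the 5 brains. Among brains labelled male, replicate 10 held 109 CPM (108.73) against a next value of 113 CPM, a gap of 0.799 of a much narrower range. Neither brain stood apart for *Nr1d2* in the 10 *Winnie* brains as a whole.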

How the results depend on the processing

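The log2 fold change of each of the 10 genes kept its sign in the 260 refits that could change it. It moved by less than 1 SD between brains in each. Leaving out 1 of 10 brains cannot move a group mean that far, so for those refits the limit shows nothing about stability. The filter, labelled sex and the replicate block leave the log2 fold change as it is by construction. The number of the 10 with an FDR under 0.05 was 5, ran from 5 to 6 when a brain was left out, and was 0 at the stricter threshold. *Dbp* passed without C57BL/6 replicate 2 or 4 or *Winnie* replicate 6, and *Per2* without C57BL/6 replicate 10. With a replicate block the count was 4, *Tef* being the gene lost. Same-numbered brains deviated together in 2 of 10 pairs (correlation above 0.1, range -0.34 to 0.17) and 0 of 10 correlated best with their own number, so they share a number and nothing else that the data show. Over all genes the count was 434, with 227 under the replicate block, 977 in DESeq2, 137 without *Winnie* replicates 6, 7 and 8 together (added after the values were seen), and 169 to 694 with a brain left out; it moved by more than 1.5 times without C57BL/6 replicate 3, 5, 8, 9 or 10 or *Winnie* replicate 2, 3, 7 or 8. Of the other clock genes 1 passed, with 2 at a mean CPM of at least 1, 2 with labelled sex as a covariate (which does not adjust for sex, as 9 of 10 C57BL/6 labels go against *Xist* and *Ddx3y*), 3 in DESeq2, and 1 to 3 with a brain left out (3 without C57BL/6 replicate 10, 2 without *Winnie* replicate 9 or 10). *Arntl* was lost under the replicate block and *Cry1* gained. For the slope on *Dbp* the count was 0, with 1 (*Nr1d1*) at a pseudocount of 1, 1 at a mean CPM of at least 1, and 0 to 1 with a brain left out. The sex comparison gave 0 of 10 under its 5 other settings and with any brain left out. The cause of these shifts was not tested. Read depth set no limit for the 10 genes, whose lowest value rested on 189 reads; the spread between brains did.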
